A study of Homo sapiens with 6 samples.

Results

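The 9 genes described here build and load major histocompatibility complex (MHC) class I, the surface molecule that shows fragments of a cell's own proteins to T cells and natural killer cells. They were taken by symbol from the read count table, and all 9 of 9 were found among its 23250 genes. The data are RNA sequencing counts from OCI-LY1, an established line of human diffuse large B cell lymphoma, a tumour of mature B cells. In every library siRNA had lowered the cells' own BCL6, the repressor that maintains germinal centre B cells. The mutant rescue (3 libraries) then received ectopic BCL6 with a mutated RD2, its central repression domain, and the wild-type rescue (3 libraries) received ectopic wild-type BCL6. All libraries come from 1 line and all carry a rescue. Nothing states that replicates were separate cultures, so the p-values reflect only how much these libraries vary, and that variation may be technical. In bulk RNA, fewer cells that express a gene and less RNA per cell cannot be told apart.

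Class I molecules consist of a polymorphic heavy chain (HLA-B and HLA-C among the classical ones), the light chain B2M and a peptide. Proteasomes cut the peptide, the TAP1 and TAP2 transporter carries it into the endoplasmic reticulum, TAPBP (tapasin) tethers empty class I to that transporter, and ERAP1 trims the peptide to length. HLA-E is a nonclassical heavy chain that mainly presents signal-sequence peptides of other class I molecules to natural killer cell receptors. NLRC5 is the transactivator that drives class I genes, and germinal centre lymphomas are known for frequent loss of B2M and of surface class I.

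The genes went in opposite directions. In the mutant rescue NLRC5, HLA-E and B2M rose, by 1.99-fold, 1.71-fold and 1.61-fold, while TAPBP fell 1.54-fold, ERAP1 1.31-fold and HLA-C, TAP2, TAP1 and HLA-B by 1.15-fold or less. Of the 9 genes, 3 rose and 6 fell (quasi-likelihood test of edgeR, p under 0.05 after Benjamini-Hochberg adjustment over 12406 tested genes). Over all tested genes 70.1% were called, 35.4% as higher and 34.8% as lower, so a call alone sets no gene apart here. When the test required more than a 1.2-fold change (glmTreat), 5 of the 9 passed, NLRC5, HLA-E and B2M as higher and TAPBP and ERAP1 as lower, beside 37.0% of all genes. The values of the 2 rescues did not overlap for 9 of 9, beside 72.4% of all genes. The median log2 fold change was -0.17 over the 9 genes and 0.01 over all tested genes.

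**Figure D1:**
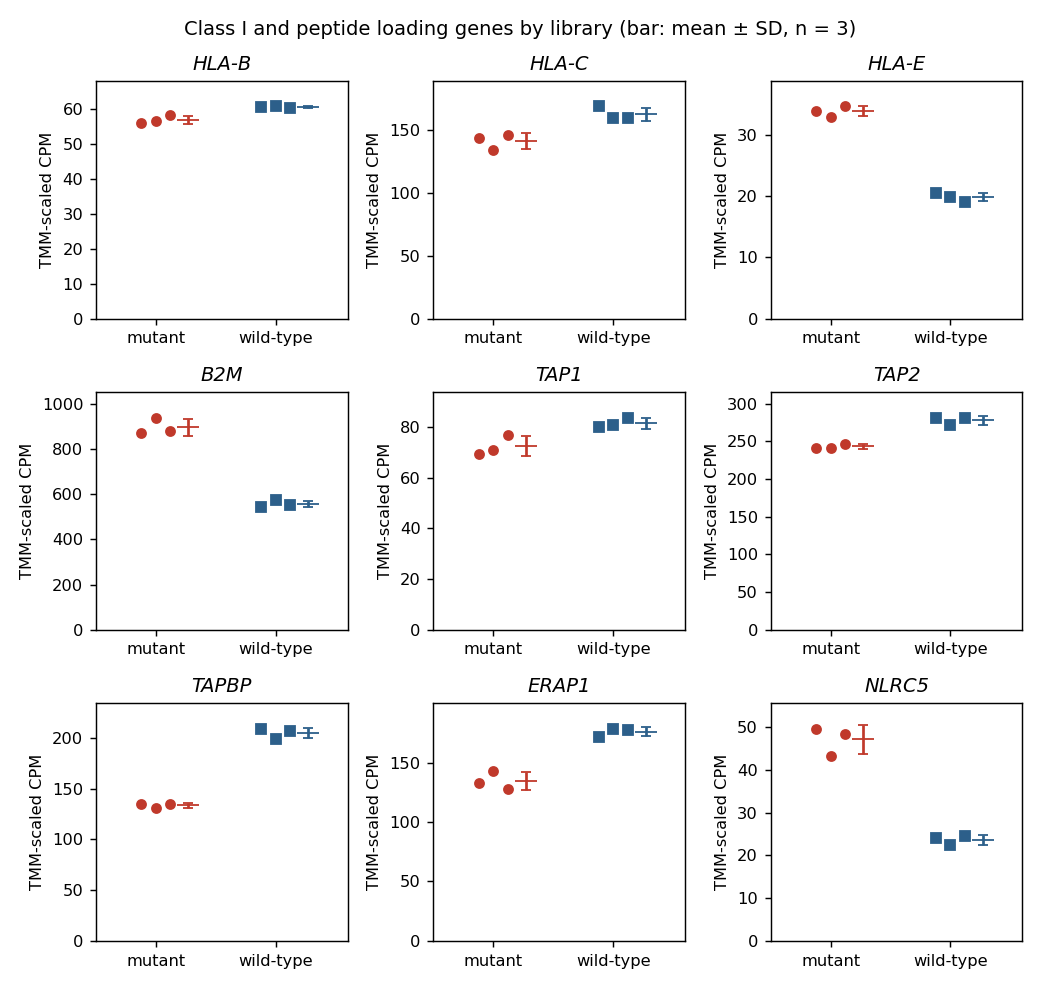
Expression of the 9 genes in each library, in CPM (counts scaled to each library's TMM-adjusted total) on an axis from 0, with the mutant rescue as circles on the left and the wild-type rescue as squares on the right; bars are the mean ± SD over 3 libraries. HLA-E, B2M and NLRC5 lie higher in all 3 mutant libraries, and the other 6 genes lie lower.

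The promoters of 6 of the genes are shown with the motifs found in them. Each run holds the 200 bases before the RefSeq start site (GRCh38.p14), read 5′ to 3′ on the gene's strand. Capitals mark, on either strand, AANNGAAA (core of an interferon response element), CCAAT (the box bound by NF-Y), TGACG (a core of the cyclic AMP response element) and the kappa B consensus, and neighbouring matches can overlap.
HLA-B (chr6:31357180-31357379, minus strand): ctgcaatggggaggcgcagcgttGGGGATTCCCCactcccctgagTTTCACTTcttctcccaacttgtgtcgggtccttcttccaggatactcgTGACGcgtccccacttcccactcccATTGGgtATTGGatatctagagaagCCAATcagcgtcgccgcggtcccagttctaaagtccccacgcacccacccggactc
HLA-C (chr6:31272093-31272292, minus strand): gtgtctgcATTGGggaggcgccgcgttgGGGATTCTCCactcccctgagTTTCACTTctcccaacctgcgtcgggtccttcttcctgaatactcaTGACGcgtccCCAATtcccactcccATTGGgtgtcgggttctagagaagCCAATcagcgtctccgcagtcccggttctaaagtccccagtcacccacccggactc
B2M (chr15:44711317-44711516, plus strand): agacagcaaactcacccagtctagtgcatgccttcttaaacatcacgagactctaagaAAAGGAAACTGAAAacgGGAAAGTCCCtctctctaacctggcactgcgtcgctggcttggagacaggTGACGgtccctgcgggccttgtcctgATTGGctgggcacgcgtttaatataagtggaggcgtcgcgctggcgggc
TAP1 (chr6:32853705-32853904, minus strand): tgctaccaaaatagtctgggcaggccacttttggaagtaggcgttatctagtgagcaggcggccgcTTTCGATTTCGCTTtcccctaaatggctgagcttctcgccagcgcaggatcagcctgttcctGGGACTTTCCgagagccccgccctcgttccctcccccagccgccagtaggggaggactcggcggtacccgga
TAP2 (chr6:32838740-32838939, minus strand): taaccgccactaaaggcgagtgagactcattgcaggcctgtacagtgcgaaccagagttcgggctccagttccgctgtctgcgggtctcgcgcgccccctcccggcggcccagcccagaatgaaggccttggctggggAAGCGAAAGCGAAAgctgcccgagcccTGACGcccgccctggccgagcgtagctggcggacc
TAPBP (chr6:33314079-33314278, minus strand): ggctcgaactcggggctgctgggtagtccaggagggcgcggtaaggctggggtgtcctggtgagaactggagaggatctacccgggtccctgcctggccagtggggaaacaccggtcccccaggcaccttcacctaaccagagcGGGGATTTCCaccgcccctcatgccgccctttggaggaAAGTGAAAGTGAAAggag

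Each of these 6 promoters holds AANNGAAA, which 16.1% of the 35116 promoters in the table hold in the same 200 bases. The kappa B consensus was found in all of them but TAP2 (8.14% of all promoters), and TGACG in HLA-B, HLA-C, B2M and TAP2 (18.4%). HLA-B, HLA-C and B2M hold both TGACG and CCAAT, and CCAAT on its own is in 28.0% of all promoters. The share of promoters that hold both was not counted. TGACG lies at bases -106 to -102 before the start in HLA-B, -105 to -101 in HLA-C and -75 to -71 in B2M. No window, ERAP1's included, holds the BCL6 core TTCCTNGAA, found in 1.03% of all promoters. B2M, HLA-B and HLA-C carry the same 4 kinds of match. All windows are reference sequence, and the promoters of the OCI-LY1 line itself were not examined. Whether any match bears on a change in expression was not tested. ERAP1 has a pair of entries, of which 1 holds AANNGAAA and the other CCAAT and the kappa B consensus. TAP1 has a second entry, in which none of these motifs was found. HLA-E and NLRC5 have no entry.

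Among the heavy chains, the nonclassical HLA-E stood opposite to HLA-B and HLA-C. HLA-E had 33.9, 33.0 and 34.7 CPM in the mutant rescue, against 20.5, 19.9 and 19.1 CPM in the wild-type rescue. Its log2 fold change was 0.77 (SE 0.054; edgeR, adjusted p = 5.32e-11), and every mutant library lay well above every wild-type library. HLA-C had 143.3, 134.5 and 146.2 CPM in the mutant rescue, against 168.7, 159.2 and 159.7 CPM in the wild-type rescue. That is a log2 fold change of -0.20 (SE 0.037; edgeR, adjusted p = 6.68e-05), with the highest mutant library below the lowest wild-type one. HLA-B had 55.8, 56.5 and 58.1 CPM in the mutant rescue, against 60.6, 60.6 and 60.2 CPM in the wild-type rescue. The HLA-B groups are narrow and do not overlap, but the difference is small, with a log2 fold change of -0.09 (SE 0.040; edgeR, adjusted p = 0.0499). This call sat at the threshold and was lost under 10 of 15 alternatives, among them DESeq2 (adjusted p = 0.0940), scaling by library size (adjusted p = 0.129) and omission of any 1 library other than mutant replicate 3 (adjusted p from 0.0523 to 0.148). Over the 15 alternatives its adjusted p ranged from 0.0288 to 1, and its log2 fold change stayed between -0.11 and -0.07.

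Reads of HLA genes carry a limit of their own. The heavy chains are near-identical over long stretches and differ between people, and how reads that map to several genes were treated is not given in the sources used here, so counts of single HLA genes are uncertain. HLA-B shares 23.5% of its exonic bases in GENCODE v29 with an antisense pseudogene, AL671883.2. Among 5 other class I heavy chain genes and pseudogenes analysed here, 0 rose, 0 fell and 5 did not pass with edgeR, with a median log2 fold change of 0.09. At an unadjusted p under 0.05 edgeR found 1 of them, the pseudogene HLA-H (0.20; unadjusted p = 0.0463 from the edgeR fit across all genes), and DESeq2 and limma-voom called 0. With scaling by library size HLA-H passed as higher (adjusted p = 0.0453 from edgeR). The pseudogenes HLA-L (-0.21) and HLA-J (0.09) did not pass. HLA-F and HLA-G, both nonclassical, were scarce, at 1.595 and 0.873 CPM in the mutant rescue, against 1.504 and 0.693 CPM in the wild-type rescue, and did not pass the test.

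B2M, the light chain that every class I heavy chain needs to reach the surface, was the most abundant of the 9 genes. It had 23321, 25191 and 23352 counts in the mutant rescue, against 14923, 14958 and 15052 in the wild-type rescue. Scaled, these are 895.1 ± 37.4 CPM in the mutant and 556.2 ± 14.6 CPM in the wild-type rescue (SD, n = 3 each). The log2 fold change was 0.69 (SE 0.033; edgeR, adjusted p = 1.35e-13). B2M alone exceeded the other 8 genes together in counts in the mutant rescue, where the 9 genes took 0.176% to 0.178% of all counts, against 0.154% to 0.155% in the wild-type rescue.

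The transporter subunits TAP1 and TAP2 were both slightly lower. TAP1 had 69.5, 70.7 and 77.0 CPM in the mutant rescue, against 79.8, 80.6 and 83.6 CPM in the wild-type rescue. TAP2 had 241.3, 241.4 and 246.7 CPM in the mutant rescue, against 281.4, 271.4 and 280.3 CPM in the wild-type rescue. The mutant libraries lay below the wild-type ones for both subunits, narrowly so for TAP1, whose mutant replicate 3 came near the wild-type range. The log2 fold changes were -0.17 for TAP1 (SE 0.043; edgeR, adjusted p = 0.00157) and -0.19 for TAP2 (SE 0.031; edgeR, adjusted p = 1.35e-05). In the GENCODE v29 annotation 15.4% of TAP1's exonic bases also lie in the antisense transcript PSMB8-AS1, and 33.4% of TAP2's in a same-strand protein-coding gene model, AL669918.1. The strand setting of the counts is not given in the sources used here, so the share of reads from these overlaps was not tested.

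TAPBP, the tapasin that holds empty class I at the transporter and edits its peptide, showed the largest fall of the 9. It had 135.0, 131.1 and 134.4 CPM in the mutant rescue, against 209.0, 199.3 and 206.6 CPM in the wild-type rescue. The replicates sat within a few percent of one another and far from the other group, with a log2 fold change of -0.62 (SE 0.033; edgeR, adjusted p = 7.26e-13). ERAP1, the aminopeptidase that trims peptides inside the endoplasmic reticulum, had 132.8, 142.9 and 127.4 CPM in the mutant rescue, against 171.5, 178.4 and 177.6 CPM in the wild-type rescue. It fell by 0.39 on the log2 scale (SE 0.039; edgeR, adjusted p = 1.73e-08), and its mutant libraries were more scattered than its wild-type ones. ERAP1 shares 4.03% of its exonic bases with CAST on the opposite strand, and CAST rose (log2 fold change 0.12; edgeR, adjusted p = 0.00529).

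NLRC5, a nucleotide-binding protein that joins a promoter-bound complex of RFX, CREB and NF-Y factors and activates class I genes, had the largest rise of the 9. It had 1329, 1161 and 1290 counts in the mutant rescue, against 661, 583 and 668 in the wild-type rescue. These are 49.6, 43.2 and 48.5 CPM in the mutant rescue, against 24.1, 22.3 and 24.5 CPM in the wild-type rescue. The second library was the lowest in both rescues, and the groups stayed far apart (log2 fold change 0.99, SE 0.058; edgeR, adjusted p = 2.58e-12). The absolute change of NLRC5 was larger than that of 90.3% of tested genes or equal to it, against 85.1% for HLA-E, 82.1% for B2M, 79.1% for TAPBP and 17.3% for HLA-B.

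**Figure D2:**
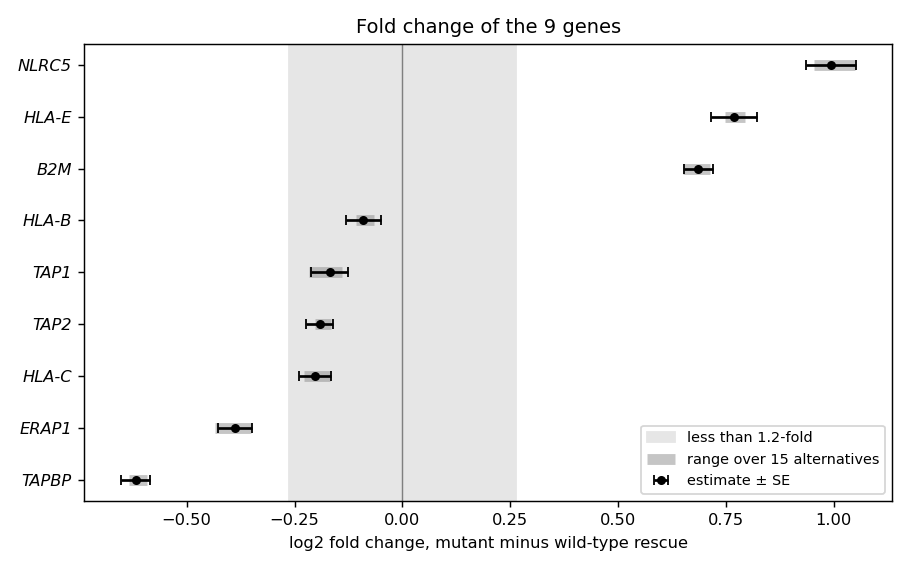
Log2 fold change of each gene, mutant minus wild-type rescue, with its SE as the black bar, the range over 15 alternative settings as the thick grey bar and changes of less than 1.2-fold shaded. NLRC5 (0.99), HLA-E (0.77) and B2M (0.69) lie right of the shaded band, ERAP1 (-0.39) and TAPBP (-0.62) left of it, and HLA-B, TAP1, TAP2 and HLA-C inside it.

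To compare genes with one another, CPM was divided by the length of each gene's merged exons in GENCODE v29. On this scale of CPM per kb, B2M was highest in both rescues, at 376.4 ± 15.7 in the mutant and 233.9 ± 6.13 in the wild-type rescue (SD, n = 3 each). HLA-C came second, at 91.0 ± 3.92 in the mutant and 104.6 ± 3.44 in the wild-type rescue. NLRC5 was lowest, at 6.90 ± 0.497 in the mutant and 3.46 ± 0.170 in the wild-type rescue, and HLA-E second lowest, at 13.02 ± 0.315 in the mutant and 7.63 ± 0.268 in the wild-type rescue. The middle of the order differed between the rescues. In the mutant rescue TAP2 (39.4 ± 0.5) was followed by HLA-B (35.8 ± 0.739), TAPBP (31.8 ± 0.501), TAP1 (24.5 ± 1.36) and ERAP1 (18.1 ± 1.06). In the wild-type rescue TAPBP (48.9 ± 1.2) was followed by TAP2 (45.0 ± 0.888), HLA-B (38.1 ± 0.139), TAP1 (27.5 ± 0.687) and ERAP1 (23.7 ± 0.509). TAPBP thus stood at place 5 in the mutant rescue, against place 3 in the wild-type rescue. Each neighbouring pair in both orders was further apart than the sum of its SDs. Those SDs measure the spread between libraries, not the error from exon lengths or from reads shared between genes. With the longest transcript as the length, the top 5 places of each rescue held the same genes, but TAP1 and ERAP1 were level at 24.5 CPM per kb in the mutant rescue and ERAP1 lay above TAP1 in the wild-type rescue, so their order is not resolved.

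**Figure D3:**
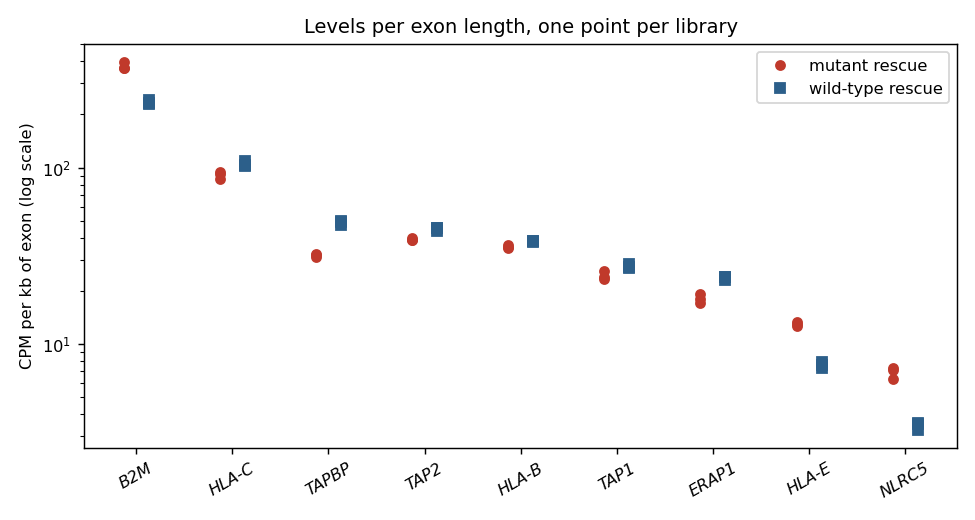
CPM per kb of merged exon for the 9 genes in each library, on a log axis, with mutant rescue libraries as circles left of the wild-type squares and genes ordered by their wild-type level. B2M is highest at 376.4 in the mutant and 233.9 in the wild-type rescue, and NLRC5 lowest at 6.90 in the mutant and 3.46 in the wild-type rescue.

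Ratios of 2 genes within a library do not depend on how libraries are scaled, and they show how the parts of the pathway moved against one another. HLA-B counts were 6.41%, 6.02% and 6.62% of B2M counts in the mutant rescue, against 11.1%, 10.6% and 10.9% in the wild-type rescue. HLA-C counts were 16.5%, 14.3% and 16.7% of B2M counts in the mutant rescue, against 31.0%, 27.8% and 28.9% in the wild-type rescue. HLA-B and HLA-C thus both lost ground to the light chain in every mutant library, with differences in the log2 ratio of -0.78 for HLA-B and -0.89 for HLA-C. HLA-E kept pace with B2M, at 3.89%, 3.52% and 3.95% of its counts in the mutant rescue, against 3.77%, 3.48% and 3.47% in the wild-type rescue, and these groups overlapped. HLA-E was 60.7%, 58.5% and 59.7% of HLA-B in the mutant rescue, against 33.9%, 32.8% and 31.8% in the wild-type rescue, a difference of 0.86 in the log2 ratio.

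The transporter subunits kept their proportion while tapasin did not. TAP1 counts were 28.8%, 29.3% and 31.2% of TAP2 counts in the mutant rescue, against 28.4%, 29.7% and 29.8% in the wild-type rescue, and the groups overlapped. The log2 ratio of TAPBP to TAP1 averaged 0.88 ± 0.077 in the mutant and 1.33 ± 0.048 in the wild-type rescue (SD, n = 3 each), without overlap. TAP1 and PSMB9, an immunoproteasome subunit gene, are divergent neighbours that share a promoter region, yet their log2 ratio averaged -0.38 ± 0.069 in the mutant and 0.07 ± 0.058 in the wild-type rescue (SD, n = 3 each), also without overlap. The ratios are given as values and no test of them was run; with 3 libraries a side the smallest p of an exact permutation test is 0.1.

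**Figure D4:**
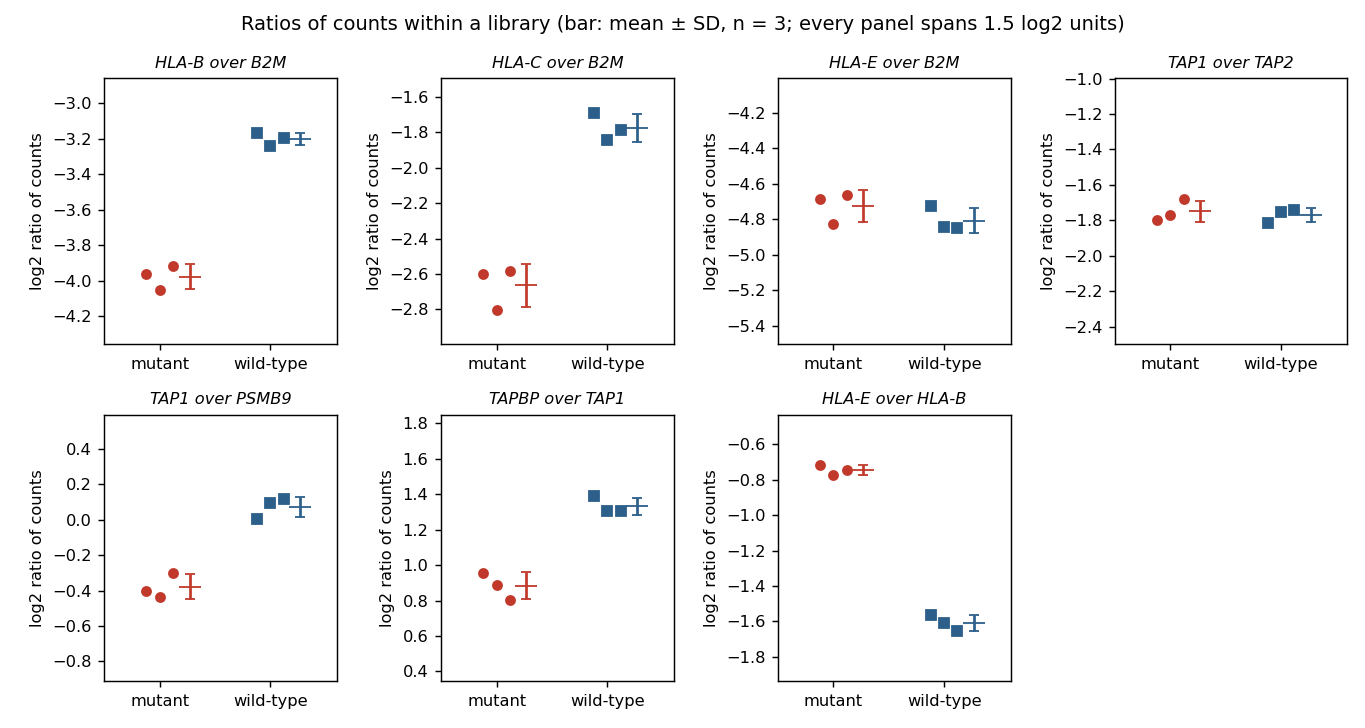
Log2 ratios of counts of 2 genes in the same library, with the mutant rescue as circles on the left, the wild-type rescue as squares on the right and bars for the mean ± SD over 3 libraries. HLA-B and HLA-C relative to B2M differ by -0.78 and -0.89 between the rescues, while HLA-E over B2M and TAP1 over TAP2 overlap.

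The other genes of the pathway were read from lists, by their counts, beside the 35.4% of all tested genes called higher, the 34.8% called lower and the 37.0% that passed glmTreat. No list was tested against other genes. Of 11 other loading and quality control genes 2 rose and 9 fell, with a median log2 fold change of -0.34, and 8 passed glmTreat. The falls include chaperones that hold class I while it is loaded. CALR, the chaperone calreticulin that binds class I sugar chains, had 589.1 ± 9.02 CPM in the mutant and 1491 ± 19.6 CPM in the wild-type rescue (SD, n = 3 each; log2 fold change -1.34; edgeR, adjusted p = 1.58e-19). PDIA3, the disulphide isomerase paired with tapasin, fell by 1.03 on the log2 scale, and CANX, the calnexin that holds newly made heavy chains, by 0.75. HM13, the signal peptide peptidase that helps release the leader peptides bound by HLA-E, fell by 0.41. MOGS (-0.37), PRKCSH (-0.34), P4HB (-0.28), UGGT1 (-0.14) and GANAB (-0.11) also fell. Whether the falls are particular to class I loading was not tested. The 2 that rose were ERAP2, a trimming peptidase related to ERAP1 (0.63), and TAPBPL, the tapasin-related editor outside the loading complex (0.59). ERAP1 and ERAP2 thus changed in opposite directions, as did TAPBP and TAPBPL.

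Peptides are supplied by proteasomes and trimmed by peptidases. Of 6 genes for the immunoproteasome, its activator and its assembly, 2 rose, 2 fell and 2 did not pass, with a median log2 fold change of 0.03. The shares called higher and lower were near those of all genes. In the edgeR fit 0 passed glmTreat, beside 37.0% of all genes. PSMB9 (0.28) and the activator gene PSME2 (0.12) rose, and PSMB8 (-0.12) and the assembly factor gene POMP (-0.09) fell, all by 1.21-fold or less. POMP did not pass with scaling by library size (adjusted p = 0.083 from edgeR), while the subunit gene PSMB10, not called otherwise (0.09), then passed as higher (adjusted p = 0.0146 from edgeR). Of 5 constitutive proteasome and activator genes 2 rose and 3 fell (median -0.32). PSMB5, the subunit that PSMB8 replaces, fell by 0.51 and the activator genes PSME3 and PSME4 by 0.49 and 0.32. PSMB6 (0.10) and PSMB7 (0.12) rose slightly. Of 11 cytosolic and endosomal peptidase genes 1 rose, 8 fell and 2 did not pass (median -0.29). NLN (-1.42), LNPEP (-0.59), NPEPPS (-0.45) and IDE (-0.55) fell with the smallest p of the list, and DPP8 rose (0.12).

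The regulators were read in the same way. Of 13 class I promoter factor genes 10 rose, 1 fell and 2 did not pass, with a median log2 fold change of 0.24 against 0.01 over all tested genes, and 4 passed glmTreat. IRF1, an interferon-induced activator of class I genes, had 1478, 1380 and 1391 counts in the mutant rescue, against 315, 318 and 387 in the wild-type rescue. It rose by 2.07 on the log2 scale (SE 0.064; edgeR, adjusted p = 8.86e-17), more than any of the 9 class I genes. IRF2 (0.66), ATF1 (0.51) and RFX5, the DNA-binding part of the complex that NLRC5 joins (0.32), followed, and CIITA, the class II counterpart of NLRC5, rose by 0.27. NFKB1, a kappa B subunit gene, fell by 0.09, which did not pass with scaling by library size (adjusted p = 0.0531 from edgeR). All 9 interferon receptor and signalling genes analysed here were called higher (median 0.39), beside 35.4% of all genes, and 6 passed glmTreat, beside 37.0%. The rescues did not overlap for 8 of them and overlapped for TYK2, a receptor kinase gene (0.20). The rises were led by IFNAR1 (0.65), STAT2 (0.54), IFNAR2 (0.43) and IFNGR2 (0.40). IFNAR1, a type I interferon receptor chain, had 200.6 ± 8.11 CPM in the mutant and 127.9 ± 2.79 CPM in the wild-type rescue (SD, n = 3 each). IRF9 rose as well (0.39).

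Of 9 genes for class I turnover 4 rose, 4 fell and 1 did not pass (median 0.03). UBE2J1, a ubiquitin-conjugating enzyme of endoplasmic reticulum degradation that can act on class I, rose (0.82), as did the ubiquitin ligase gene SYVN1 (0.15), TMEM127 (0.17) and KIAA0247 (0.12). SND1 (-0.64), WWP2 (-0.50), the glycosylation gene STT3B (-0.30) and the ubiquitin ligase gene RNF139 (-0.18) fell.

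**Figure D5:**
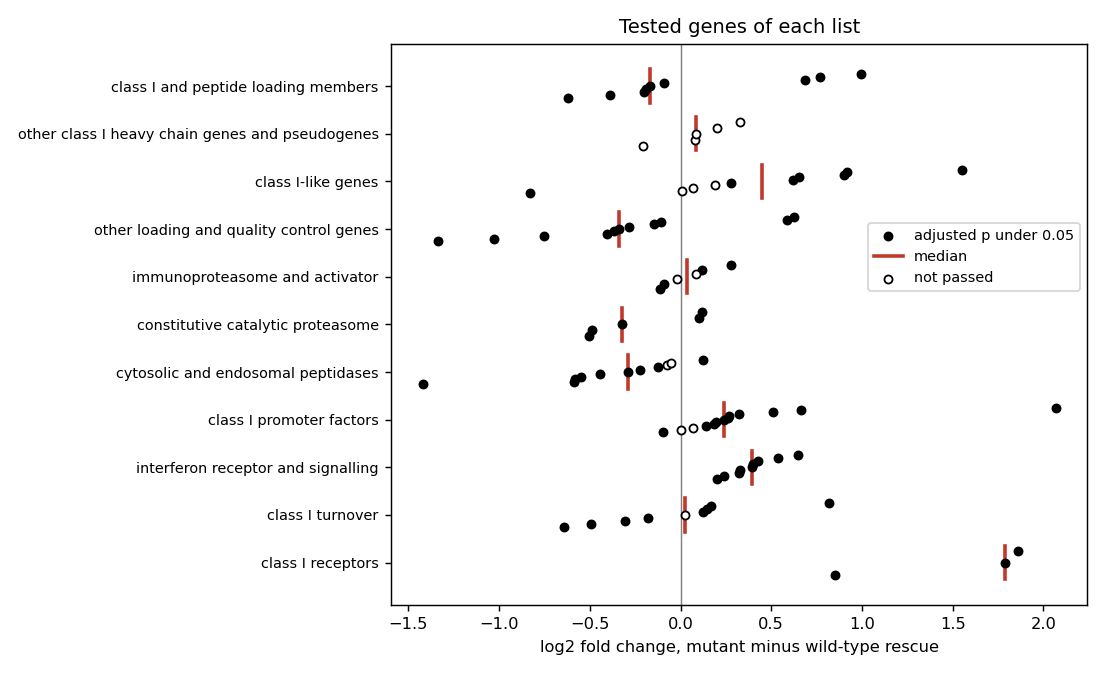
Log2 fold change, mutant minus wild-type rescue, of each tested gene in the 9 described and in 10 lists of related genes, with filled points past adjusted p under 0.05, open points not past it and a red line at each median. Loading and peptidase lists have medians of -0.34 and -0.29, and the promoter factor and interferon signalling lists 0.24 and 0.39.

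By position, 6 of the 9 genes lie in the MHC on chromosome 6, and B2M, NLRC5 and ERAP1 lie on chromosomes 15, 16 and 5. Of 104 other tested genes between HLA-F and TAPBP in the RefSeq order of chromosome 6, a stretch chosen after values were seen, 44 rose (42.3%), 30 fell (28.8%) and 30 did not pass, with a median log2 fold change of 0.08. Next to the 9 genes, PATL2 before B2M rose (1.64) at 77, 69 and 78 counts in the mutant rescue, against 34, 21 and 17 in the wild-type rescue. HLA-DOB and PSMB8, on either side of TAP2, both fell (-0.95 and -0.12), RGL2 beside TAPBP rose (0.43), and ZBTB22 (0.06) beside TAPBP and HCG27 (-0.14) beside HLA-C did not pass. TAPBP and its neighbour RGL2 thus changed in opposite directions.

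The genes with the profiles closest to NLRC5 over the 6 libraries, by Euclidean distance between centred log2 CPM, were ZBTB48 (0.0496), TROAP (0.0986) and DBF4B (0.102). Those closest to TAPBP were RPL18 (0.0263), OMA1 (0.0287) and ALG3 (0.0458). With 2 groups such a profile holds little beyond the size of the group difference, and RPL18, for example, fell by 0.61 on the log2 scale against 0.62 for TAPBP.

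Libraries held 26298456 to 26966183 counts in the mutant rescue and 26477404 to 27574867 in the wild-type rescue, where 3 counts correspond to 0.109 to 0.114 CPM. BCL6 transcript was present in both, at 519.7 ± 8.71 CPM in the mutant and 678.3 ± 24.3 CPM in the wild-type rescue (SD, n = 3 each; log2 fold change -0.38; edgeR, adjusted p = 7.91e-10), so the RD2 mutation and the amount of BCL6 transcript cannot be told apart here. The B cell label was met by 7 of 7 markers, which summed to 5670 to 5900 CPM in the mutant and 5380 to 5510 CPM in the wild-type rescue. Of 5 T cell markers measured, CD2 and CD3E were at 0 in every library, and the list summed to at most 0.263 CPM. Of 5 myeloid markers all averaged under 10 counts, summing to at most 0.821 CPM. The 5 natural killer markers summed to 3.05 to 4.14 CPM in the mutant and 1.45 to 1.98 CPM in the wild-type rescue, with PRF1 the largest share in each library. The 5 stromal or epithelial markers summed to 3.72 to 4.43 CPM in the mutant and 15.6 to 17.0 CPM in the wild-type rescue, nearly all of it EPCAM. The part of these 2 lists in the results was not tested.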

How the data were processed

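RNA sequencing of 6 OCI-LY1 samples was used, 3 mutant and 3 wild-type rescues grouped by the sample titles. Libraries followed the TruSeq RNA procedure on Trizol RNA, per the labels' protocols. CASAVA 1.8.2, STAR, edgeR and genome build hg19 were used, per the submitters' processing notes. The sources used here do not give the counter, the annotation, the strand setting or the multi-mapping rule. The values the authors deposited are unnormalized counts of reads for each gene symbol in each sample.

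From these, R 4.3.3 with edgeR 4.0.16 compared the rescues: filterByExpr (12406 of 23250 genes kept; 26 symbols that look like dates stayed in), TMM scaling, a robust quasi-likelihood fit without covariates, Benjamini-Hochberg adjustment over all tested genes, threshold 0.05. Log2 fold changes are mutant minus wild-type rescue. The test was first run on simulated counts in which far fewer genes changed than were called here. That run does not check the scaling under so wide a change. The 9 genes, the lists and the tests were chosen with earlier results of these data known. Beyond the 9 genes and BCL6, the text names up to 4 genes of each list with the smallest p. It also names all called ones where a direction held 5 or fewer, the annotation neighbours and the nearest profiles. IRF9, TYK2, PSMB10, CIITA, CAST, MICB, HLA-F and KLRD1 were added after their values were seen, as were MOGS, PRKCSH, P4HB, UGGT1 and GANAB.

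Within each rescue, replicate libraries differed by more than counting noise (chi-square per degree of freedom 1.6 to 5.47), the second mutant library most, and all were kept as separate samples. Alternatives were scaling by library size, RLE or upper quartile, limma-voom (limma 3.58.1), DESeq2 1.42.0, 2 other filters, the replicate number as a block, glmTreat and omission of each library. Promoters and gene order came from RefSeq (GRCh38.p14), exon lengths and overlaps from GENCODE v29, by symbol. Promoter entries matched 7 of the 9 genes.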

Additional observations from a re-analysis of the deposited data

How the results depend on the processing

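HLA-E, B2M, NLRC5, TAPBP and ERAP1 kept their direction and their call under all 15 alternatives; their log2 fold changes ranged from 0.75 to 0.80, 0.65 to 0.71, 0.95 to 1.05, -0.63 to -0.59 and -0.44 to -0.35. HLA-C, TAP1 and TAP2 lost their call under 1 alternative, glmTreat against 1.2-fold, and HLA-B under 10. With glmTreat 2 of the 9 genes were called lower in place of 6, and over all genes 2383 were called higher and 2202 lower in place of 4386 and 4316; its minimum change accounts for this by construction. The other alternatives called 5 or 6 of the 9 lower and 3 higher. Scaling by library size gave 0 promoter factor genes called lower, 1 immunoproteasome gene called lower and 1 other heavy chain gene called higher, in place of 1, 2 and 0 (NFKB1 and POMP lost their calls and HLA-H gained one). It moved the median log2 fold change of all genes by 0.03. The difference in the log2 ratio of TAP1 to TAP2 (0.02) ranged from -0.01246 to 0.0454 on omission of 1 library and reversed without mutant replicate 3 (-0.01246) and without wild-type replicate 1 (-0.00144), all within the spread between replicates. Same-numbered libraries did not deviate together in every pair (r = 0.20, 0.24 and -0.072), and mutant replicate 3 correlated best with wild-type replicate 1. With the replicate block 4680 genes were called higher and 4605 lower, with 3 and 6 of the 9.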

Other observations

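Relatives of class I presented a mixed picture. Of 10 tested class I-like genes 6 rose, 1 fell and 3 did not pass, beside 35.4% of all tested genes called higher and 34.8% called lower. Their median log2 fold change was 0.45, and 4 passed glmTreat, a share near the 37.0% of all genes. CD1C and CD1D, which present lipids, rose (1.55 and 0.65), CD1C with 69, 67 and 74 counts in the mutant rescue, against 25, 23 and 24 in the wild-type rescue. The stress ligand genes ULBP1 and ULBP3 changed in opposite directions (0.91 and -0.83) at 2.27 and 0.897 CPM in the mutant rescue, against 1.2 and 1.59 CPM in the wild-type rescue. MICB, another stress ligand gene, did not pass the test, at 62.8 ± 2.17 CPM in the mutant and 62.4 ± 0.998 CPM in the wild-type rescue (SD, n = 3 each).

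Of 12 class I receptor genes listed, 3 were tested and all 3 rose, beside 35.4% of all tested genes. Among them CD160 (0.85) was scarce, with 27, 18 and 27 counts in the mutant rescue, against 15, 14 and 11 in the wild-type rescue. The rest of the list had too few counts to be tested, so the 3 do not speak for it. KLRC2 and KLRC1 encode receptor chains that bind HLA-E on natural killer cells. KLRC2 had 530, 535 and 584 counts in the mutant rescue, against 152, 136 and 170 in the wild-type rescue (log2 fold change 1.86; edgeR, adjusted p = 3.97e-14). KLRC1 had 102, 83 and 87 counts in the mutant rescue, against 25, 30 and 24 in the wild-type rescue. KLRD1, their partner chain, had 2, 0 and 2 counts in the mutant rescue, against 13, 10 and 9 in the wild-type rescue, and was not tested. KLRC1 and KLRC2 are near-identical over long stretches, so the split of reads between them is uncertain.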
